A study of Mus musculus with 6 samples.

Results

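Upstream H3K9ac intervals are the called peaks that the authors placed in front of a gene but outside its promoter: those whose region value was upstream in the list of peaks of each library. Acetylation of lysine 9 of histone H3 (H3K9ac) was measured by chromatin immunoprecipitation and sequencing in epithelium taken from the distal intestine, with C57BL/6 as the strain. Housing was germ-free, E. coli monoassociation (colonisation by that bacterium alone) or conventional, with 2 libraries in each of the 3 groups and no age, sex or diet given in the labels. The labels do not state separate animals for the 2 libraries of a group, and their spread may then be technical. Over the 6 lists there were 3302 unique upstream intervals, and joining those that shared at least 1 bp gave 2421 upstream regions out of 23983 merged nuclear regions of all classes. The other classes held 12523 promoter, 839 exon, 6202 intron and 2918 intergenic regions, and a region could be in more than 1 class where libraries classed it differently.

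H3K9ac is laid down by acetyltransferases and removed by histone deacetylases, and it is found on nucleosomes beside active transcription start sites and at active enhancers. Acetylation just upstream of a promoter can belong to the same acetylated domain as the promoter, to a separate enhancer or to the start site of another transcript. In intestinal epithelium, genes for identity factors, junctions and brush border proteins are known to have regulatory elements in the sequence before their start sites. In these lists an interval was classed upstream where it lay between 1001 and 20999 bp before the start site of the gene assigned to it, and intervals within 1 kb of a start site were classed as promoter.

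Some of the most widely called upstream regions lay on or beside a start site of another transcript, or of another transcript of the same gene, in the RefSeq annotation of GRCm38.p6, the assembly behind mm10. The 3 windows shown run from 250 bases before to 50 bases after such a start site, 5′ to 3′ on the strand of the transcript. They are shown because a peak classed as upstream of one transcript covered the start site of another (Cflar and Hlcs) or lay inside another near its start site (Gm13648), and capitals mark the bases that lay inside the upstream region. The Cflar window is chr1:58711241-58711540 on the plus strand, the Hlcs window is chr16:94313514-94313813 on the minus strand, and the Gm13648 window is chr4:156059753-156060052 on the minus strand.
Cflar: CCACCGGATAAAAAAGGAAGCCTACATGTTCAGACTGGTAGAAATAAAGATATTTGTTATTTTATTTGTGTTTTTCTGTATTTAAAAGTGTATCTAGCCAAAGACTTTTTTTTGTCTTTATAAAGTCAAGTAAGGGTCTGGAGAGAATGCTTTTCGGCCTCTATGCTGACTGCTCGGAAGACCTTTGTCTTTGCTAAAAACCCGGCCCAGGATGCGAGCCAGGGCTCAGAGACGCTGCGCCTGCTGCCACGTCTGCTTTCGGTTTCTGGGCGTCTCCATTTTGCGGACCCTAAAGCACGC
Hlcs: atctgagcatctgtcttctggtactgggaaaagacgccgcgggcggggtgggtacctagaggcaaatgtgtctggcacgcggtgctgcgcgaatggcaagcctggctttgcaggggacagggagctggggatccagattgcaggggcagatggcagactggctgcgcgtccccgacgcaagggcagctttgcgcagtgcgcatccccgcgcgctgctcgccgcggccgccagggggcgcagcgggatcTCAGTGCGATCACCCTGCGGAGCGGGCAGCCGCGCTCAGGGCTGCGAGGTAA
Gm13648: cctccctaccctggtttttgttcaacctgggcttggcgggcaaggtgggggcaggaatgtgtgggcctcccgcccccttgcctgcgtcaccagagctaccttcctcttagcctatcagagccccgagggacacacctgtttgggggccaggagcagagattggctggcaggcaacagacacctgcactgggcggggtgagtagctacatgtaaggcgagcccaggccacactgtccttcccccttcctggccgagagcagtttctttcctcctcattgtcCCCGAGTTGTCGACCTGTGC
All 300 bases of the Cflar window lay inside the upstream region, against 52 bases of the Hlcs window and 20 of the Gm13648 window.

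Upstream of 3 microRNA genes, Mir200b, Mir200a and Mir429, lay 2 regions of the upstream class. These microRNAs are known for keeping epithelial cells epithelial by repressing Zeb1 and Zeb2. Their mature forms from RefSeq are shown with the seed (bases 2 to 8) in capitals, since they group by it.
mmu-miR-200b-3p: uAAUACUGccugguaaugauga
mmu-miR-429-3p: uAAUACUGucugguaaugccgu
mmu-miR-200a-3p: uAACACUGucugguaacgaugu
miR-200b-3p and miR-429-3p shared the seed AAUACUG, and miR-200a-3p had the seed AACACUG. The farther region, chr4:156058270-156059772, was called in 5 libraries, all but E. coli replicate 2. Its strongest interval in each list had a fold enrichment (the authors' value for a peak over its background) of 6.93 and 13.3 in germ-free replicates 1 and 2, 4.73 in E. coli replicate 1, and 7.08 and 9.41 in conventional replicates 1 and 2. Folds are read within a list only, because each list has a background of its own. The nearer region, chr4:156056809-156058152, was called in all germ-free and conventional libraries but in neither E. coli one, with folds of 5.19 and 6.33 and of 5.66 and 5.79. The Gm13648 transcript, a long noncoding RNA at chr4:156052715-156059802, spans the 3 microRNA genes on the same strand, and the farther region lay inside it, ending 30 bases short of its start site at base 156059802.

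The number of upstream intervals varied widely between the 2 libraries of the germ-free and of the conventional group. Germ-free replicates 1 and 2 had 268 and 1629, the E. coli-monoassociated pair 100 and 39, and the conventional pair 147 and 1119. Replicate 2 of the germ-free and of the conventional group stood far above the other 4 libraries, and both E. coli libraries lay below every other library. The group means were 948.5 ± 962 (SD, n = 2), 69.5 ± 43.1 (SD, n = 2) and 633 ± 687 (SD, n = 2). The whole lists differed in the same way, with 4428 and 17092, 1986 and 868, and 3113 and 15348 nuclear intervals, although the labels state 20 M reads for each library. On the log2 scale the E. coli mean differed from the germ-free mean by -3.40 (two-sided exact permutation p = 0.33, n = 2 against 2, adjusted p = 0.5). The conventional mean lay 2.70 above the E. coli mean (exact permutation p = 0.33, adjusted p = 0.5). The conventional mean differed from the germ-free mean by -0.70 (exact permutation p = 0.667). With 2 libraries a group the smallest p this test can give is 0.33, and over the 3 groups, where it is 0.067, the exact permutation p was 0.267. The difference between conventional and germ-free turned positive without germ-free replicate 2 (0.60) and without conventional replicate 1 (0.76).

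As a share of the nuclear intervals of its list, the upstream class took 6.05% and 9.53% in the germ-free libraries, 5.04% and 4.49% in the E. coli libraries and 4.72% and 7.29% in conventional libraries. The 95% Wilson intervals, which cover counting error only, ran from 5.39 to 6.79% and from 9.10 to 9.98% in the germ-free libraries. They ran from 4.16 to 6.09% and from 3.30 to 6.08% in the E. coli libraries, and from 4.03 to 5.52% and from 6.89 to 7.71% in the conventional libraries. The 2 longest lists had the highest shares, and the ranges of the E. coli and conventional groups overlapped. The E. coli mean differed from the germ-free mean by -3.03 percentage points (exact permutation p = 0.33, n = 2 against 2, the smallest possible). When the 868 most significant intervals of each list were taken, so that all lists were equally long, upstream intervals numbered 41 and 26 in germ-free lists, 45 and 39 in E. coli lists and 36 and 28 in conventional lists. At equal length the E. coli and germ-free ranges overlapped, and the mean share of the E. coli lists was 0.979 percentage points above that of the germ-free lists. The difference of -3.03 points was -0.722 with a -log10 q of 5 or more and -1.57 without the regions called in all 6 libraries. List length moved with the upstream number and share, and its part in them was tested only by this equal length.

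**Figure D1:**
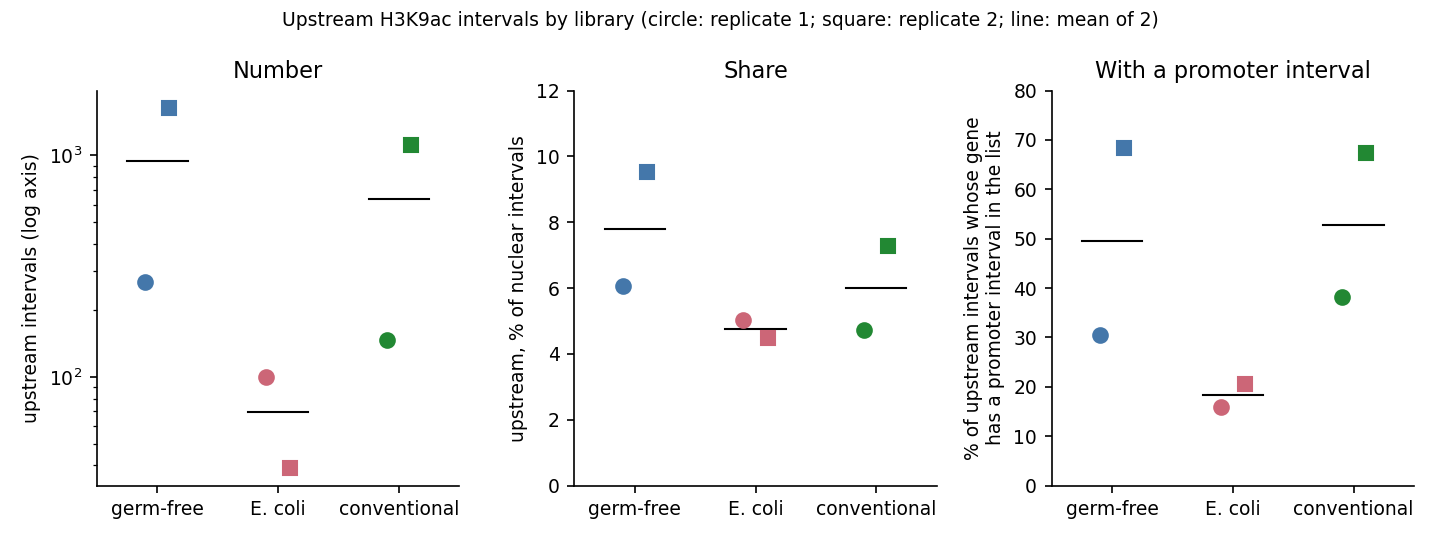
Upstream intervals per library on a log axis (left), as a percent of the nuclear intervals of the list (middle) and the percent of them whose gene has a promoter interval in the same list (right), by housing group. Circles are replicate 1, squares replicate 2 and lines the mean of 2; replicate 2 of the germ-free and conventional groups lies above all other libraries in each panel, and both E. coli libraries lie lowest for number and for promoter partners.

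Upstream regions lay at 7.23 kb from the start site at the median, counted to the nearest start site that a list gave for the assigned genes. They were densest near the promoter: 422 regions lay from 1 to 2 kb away, and the next distances held 171 per kb from 2 to 5 kb, 116 per kb from 5 to 10 kb and 82.4 per kb from 10 to 21 kb. The median distance of intervals was 6.90 and 7.26 kb in the germ-free libraries, 9.84 and 6.96 kb in the E. coli libraries and 5.21 and 7.08 kb in conventional libraries. E. coli replicate 1 stood highest, with 49 of its 100 upstream intervals beyond 10 kb, and conventional replicate 1 lowest. The regions nearest to a start site were 1001 bp from that of B4galnt2, a glycosyltransferase of the gut epithelium, called in germ-free replicate 2 alone, and from that of Slc7a9, an amino acid transporter subunit, called in conventional replicate 2 alone. The farthest was 20999 bp from that of Rnf141, Lyve1 or Snord53, called in germ-free replicate 2 alone. Where a line listed several genes, as 25.2% of the upstream intervals did, the start site printed in it was not always the nearest, and the printed distances gave medians of 7.32 and 8.05, 10.5 and 9.41, and 7.55 and 8.01 kb.

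**Figure D2:**
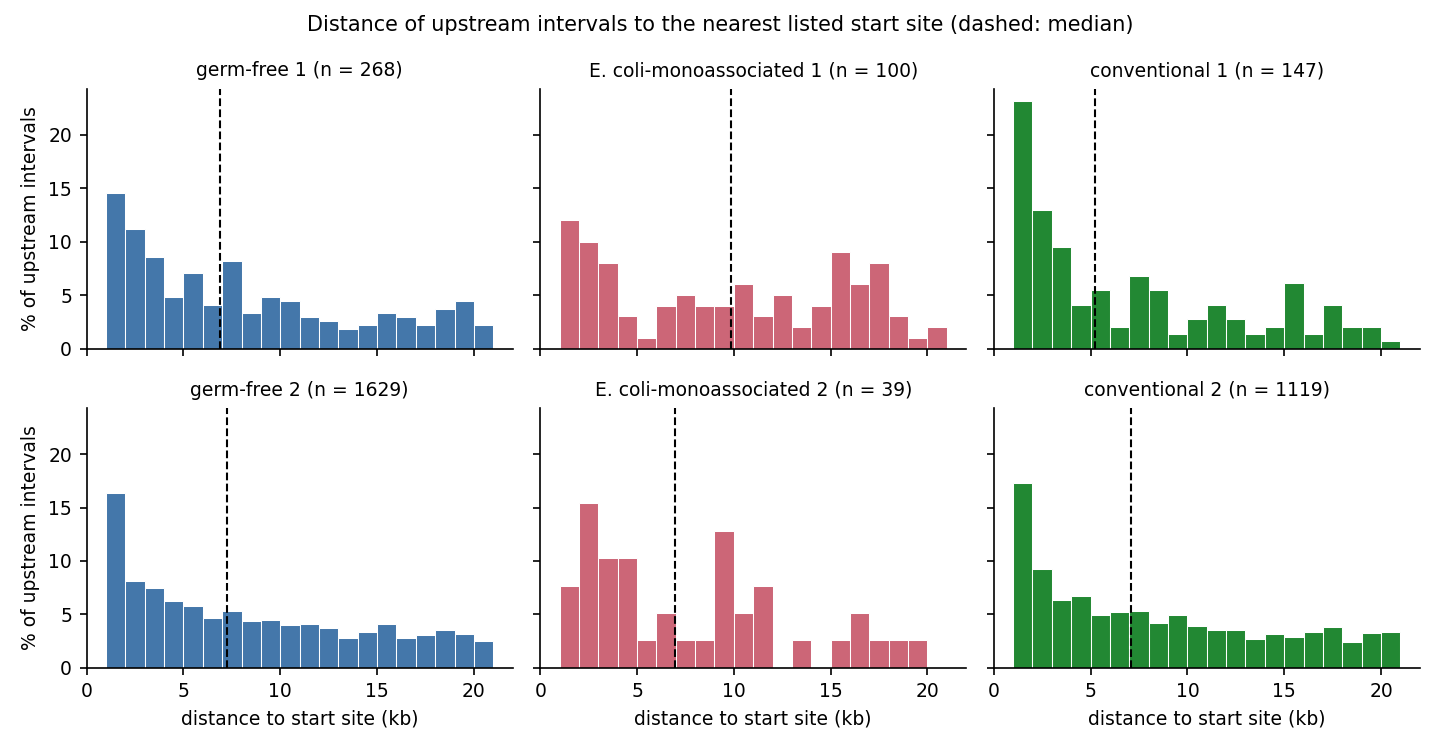
Distance of each upstream interval to the nearest listed start site in kb, in bins of 1 kb, as a percent of the library's upstream intervals, 1 panel per library; the dashed line is the median. The bin nearest to the start site is the highest in every library but E. coli replicate 2, and the 2 E. coli panels rest on 100 and 39 intervals.

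Whether the gene of an upstream interval also had a promoter interval varied with the list and with the distance. In the same list 30.6% and 68.3% of the germ-free upstream intervals had such a partner, 16.0% and 20.5% of the E. coli ones and 38.1% and 67.4% of the conventional ones. The 2 E. coli libraries were below the other 4, and the germ-free and conventional ranges overlapped. The E. coli mean differed from the germ-free mean by -31.2 percentage points (exact permutation p = 0.33, n = 2 against 2, adjusted p = 0.5). The conventional mean was 34.5 points above the E. coli mean (exact permutation p = 0.33, n = 2 against 2). The conventional and germ-free means differed by 3.28 points (exact permutation p = 1), a difference that became -15.6 without germ-free replicate 1 and -11.4 without conventional replicate 2. When every list was cut to its 868 peaks of highest -log10 q, the E. coli and germ-free means differed by -7.11 points and the conventional and E. coli means by 16.5, while the conventional and germ-free means differed by 9.38. With a -log10 q of 5 or more these values were -13.4 and 16.0. Under both settings the E. coli libraries no longer lay below the other 4: germ-free replicate 1 had 19.5% against 20.5% in E. coli replicate 2 at equal length, and 20.2% against 30.8% at the stricter q. Counting a promoter interval in any of the 6 lists raised the shares to 61.2% and 75.1%, 56.0% and 74.4%, and 69.4% and 71.1%. Of the 2421 regions, 1736 (71.7%) had a gene with a promoter interval in some list.

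Partners were commonest close to the start site. From 1 to 2 kb, 92.4% of the regions belonged to a gene with a promoter interval in any list, against 76.8% from 2 to 5 kb, 66.2% from 5 to 10 kb and 62.7% from 10 to 21 kb. Within single lists the share went from 51.3% at 1 to 2 kb to 14.6% at 10 to 21 kb in germ-free replicate 1 and from 89.8 to 60.5% in germ-free replicate 2. It went from 64.7 to 16.3% in conventional replicate 1 and from 88.1 to 55.5% in conventional replicate 2. The E. coli libraries, with 12 and 3 intervals at 1 to 2 kb, gave 25% and 0% there and 14.3% and 16.7% at 10 to 21 kb, lower with distance in replicate 1 and not in replicate 2. The gap of bases between an upstream interval and the nearest promoter interval of its gene was 3536 and 5423 bp at the median in the germ-free lists, 3629 and 3236 bp in the E. coli lists and 2260 and 5634 bp in the conventional lists. Gaps of 500 bp or less were found for 131 upstream intervals of germ-free replicate 2 (8.04%) and 66 of conventional replicate 2 (5.90%), and for 1 to 5 in the other 4 lists. For comparison, the gene of an intronic interval had a promoter interval in the same list in 35.9 and 76.2%, 26.4 and 41.3%, and 54.5 and 77.1%, and that of an intergenic interval in 13.5 and 44.6%, 6.17 and 2.99%, and 10.1 and 41.9%. The upstream class lay between these classes in all 6 lists, an order that was not tested.

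**Figure D3:**
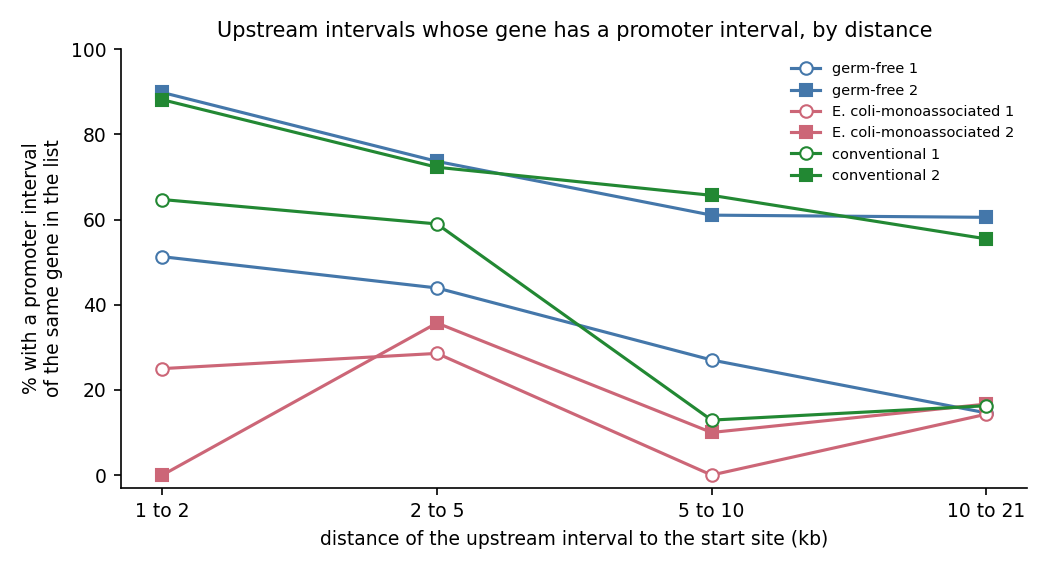
Percent of upstream intervals whose gene has a promoter interval in the same list (y axis) by distance to the start site in kb (x axis), 1 line per library; open circles are replicate 1 and filled squares replicate 2. The 2 longest lists run from near 90% to below 61%, germ-free and conventional replicate 1 fall to below 20%, and the E. coli points rest on as few as 3 intervals.

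Most upstream regions were called in a single library. Of the 2421, 1872 (77.3%) were called in 1 library by an interval of any class, against 50.7% of promoter regions and 65.6% of all regions, and 14 (0.578%) were called in all 6, against 1.57% of all regions. Germ-free replicate 2 alone called 1139 of them, conventional replicate 2 alone 596, and only these 2 lists together 315. Germ-free replicate 1 alone called 99, E. coli replicates 1 and 2 alone 27 and 1, and conventional replicate 1 alone 10. Without the 2 longest lists, a choice made after seeing the data, 394 upstream regions were left, and 74.4% of them were called in 1 library. Within each list an upstream interval was overlapped by another list less often than a promoter interval, in 6 of 6 libraries, with a mean difference of -20.4 percentage points. The two-sided exact sign-flip permutation over 6 libraries gave p = 0.031, its smallest, and an adjusted p of 0.125 over 12 tests. The overlap was also lower than that of exon intervals (a difference of -11.7 points, lower in 6 of 6, exact permutation p = 0.031, adjusted p = 0.125). With lists of equal length the difference from promoter intervals was -3.61 points (exact permutation p = 0.5). Upstream intervals were shorter than exon intervals in 6 of 6 libraries (a mean difference in log2 length of -0.36, adjusted p = 0.125 by the same exact permutation), and none of the 12 comparisons passed 0.05 after adjustment. That difference in length was -0.55 at equal list length and -0.76 with a -log10 q of 5 or more. Against intron and intergenic intervals the overlap was 3.73 and 8.85 points higher, each in 5 of 6 libraries (adjusted exact permutation p = 0.188 and 0.15), and these differences turned to -5.76 and -11.4 points at equal list length.

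Regions called in more libraries were longer, nearer to the start site and more often inside an annotated gene. Regions called in 1, in 2, in 3 or 4 and in 5 or 6 libraries had median lengths of 184, 387, 607 and 1160 bp and median distances of 7.59, 6.23, 4.86 and 3.77 kb. Length is in part a product of joining intervals over libraries. So is the distance, taken as the smallest of the joined intervals, and so are the reach and overlaps counted from the edges of a region. The share whose midpoint lay inside a RefSeq gene was 30.7, 38.1, 45.7 and 69.4% in that order, and 33.3% over all 2421. The share that reached within 1 kb of a start site in the RefSeq table was 8.81, 15.4, 22.1 and 30.6%, counted over the 2353 regions on the chromosomes of that table. In all, 256 regions (10.9%) reached so near a start site, 63 overlapped the 300-base window around one, and for 32 of those 63 the window was of the assigned gene itself. The share with a gene that had a promoter interval in any list was 70.9, 74.5, 74.3 and 75%, so it was about alike in the 4 classes. Genes of small structural RNAs lay under 1 of the 1872 regions called once (0.0534%) and under 4 of the 36 called in 5 or 6 libraries (11.1%).

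The strongest of the 14 regions called in all 6 libraries lay at Eif4enif1 and Sfi1 on chr11, at Tmem125 on chr4 and at Kpna1 on chr16. The 3 neighbouring regions at the first of these were assigned to Eif4enif1, whose product moves eIF4E into the nucleus, and to Sfi1, a centrosome protein, and all lay inside the Sfi1 gene of RefSeq. The first, chr11:3194512-3197185, had folds of 27.1 and 16.5 in germ-free mice, 23.7 and 17.1 in E. coli mice and 15.6 and 13.8 in conventional mice, and its fold stood at the 98.0th percentile of its list on average. The region at Tmem125 (chr4:118547492-118548785) had folds of 20.2 and 25.3, 24.3 and 15.7, and 12.03 and 20.3. That of Kpna1, which encodes a nuclear import receptor, had folds of 20.2 and 22.8, 19.5 and 14.3, and 12.7 and 10.9 (chr16:35981627-35981872). It overlapped start sites that lie inside the gene of the long noncoding RNA Gm15564. Each of these regions was called in every group. Sfi1 and Erdr1, a gene with a region in all 6 libraries 17377 bp before it, have near-identical copies in the mouse genome, and how reads with several placements were handled is not given in the sources used here, so their values are uncertain.

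Others of the 14 lay at genes of signalling, chromatin and secretion. Cflar encodes an inhibitor of caspase-8, and its region (chr1:58710540-58712009), 1277 bp before the listed start site, is the one whose window is printed above. It had folds of 9.23 and 8.87 (germ-free), 8.29 and 6.41 (E. coli) and 9.20 and 13.04 (conventional). In 1 library it was classed otherwise than upstream, and the promoter of Cflar had an interval in 3 lists, germ-free replicate 2 and both conventional ones. A pair of regions lay before Paf1 (a subunit of a transcription elongation complex) and Plekhg2, the nearer, chr7:28381111-28383136, also before Zfp36, which encodes the mRNA decay factor tristetraprolin. Its folds were 4.62 and 13.9, 6.51 and 7.13, and 9.20 and 10.1. The region at Pxn, which encodes the focal adhesion protein paxillin, and Sirt4 (chr5:115489097-115490444, folds of 9.23 and 10.1, 8.29 and 7.13, and 6.37 and 9.41) held 2 small nuclear RNA genes, Gm24265 and Gm24407. That before Vamp2, a synaptic vesicle protein, held the gene of the small nucleolar RNA Snord118 at chr11:69073426-69073562. This region was classed upstream in 3 of the 6 libraries.

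**Figure D4:**
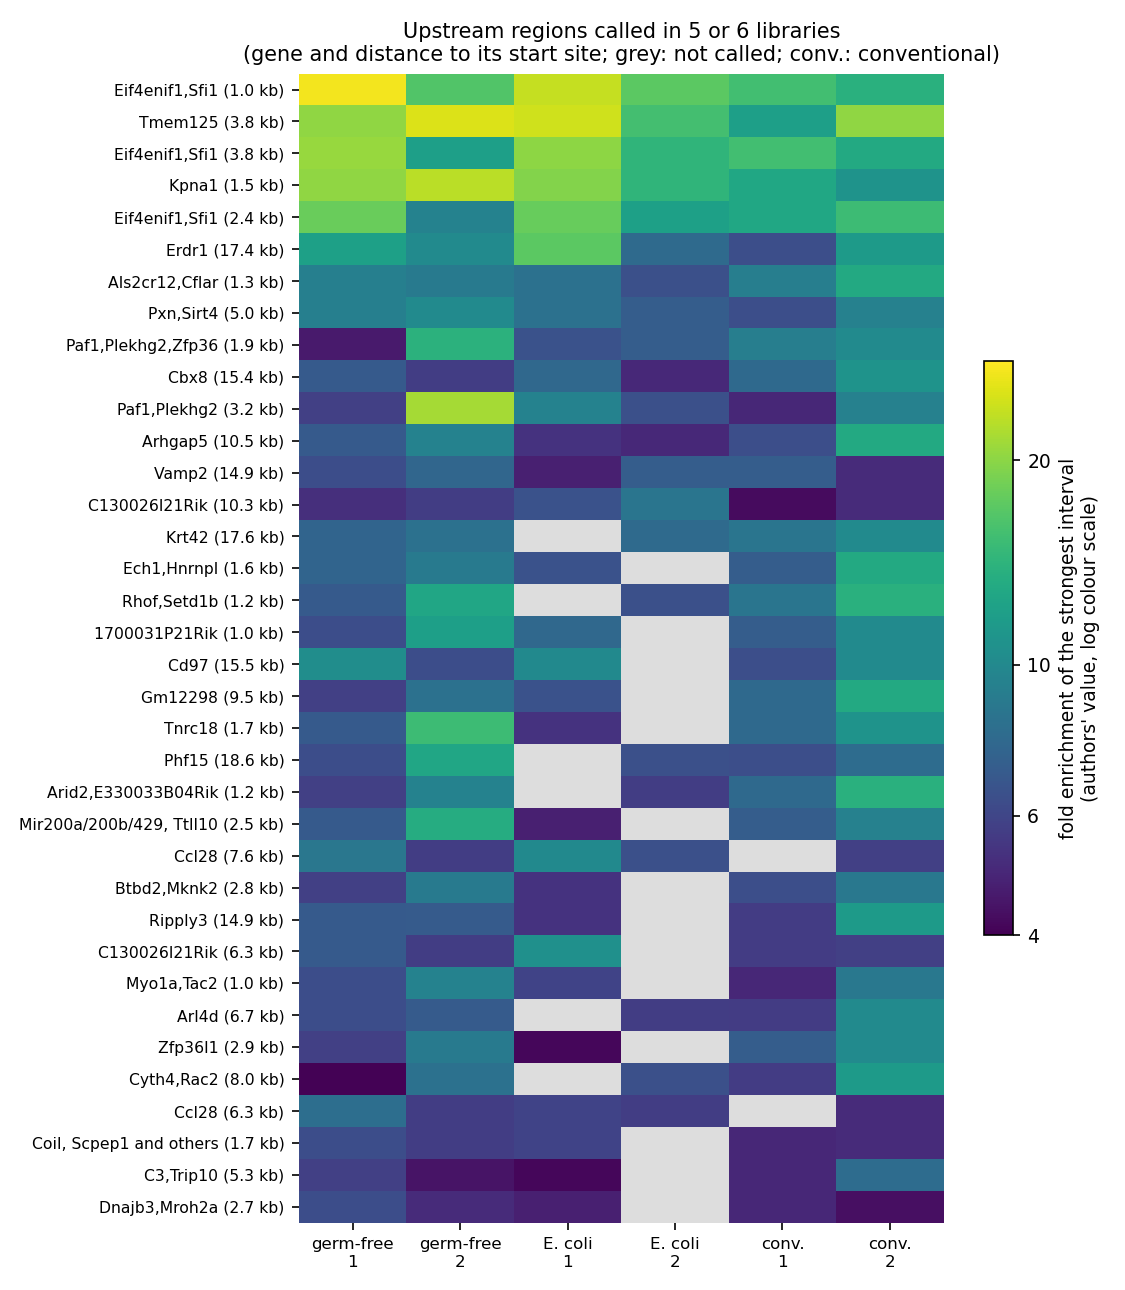
Fold enrichment (authors' value, log colour scale) of the strongest interval in each of the 36 upstream regions called in 5 or 6 libraries, rows being regions with the gene and distance in kb and columns the 6 libraries; grey marks no call. The top rows, at Eif4enif1 and Sfi1, Tmem125 and Kpna1, are the strongest, and most of the grey cells are in the column of E. coli replicate 2, the shortest list.

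Genes with a widely called upstream region and no promoter interval in any list formed a small group. Of the 1665 genes assigned to upstream regions, 647 had none and 1018 (61.1%) had one, 92 of them in all 6 lists. Cbx8, a Polycomb protein, had a region in all 6 libraries at chr11:119056315-119057439, 15402 bp before its start, with folds of 6.93 and 5.70, 7.69 and 4.99, and 7.78 and 10.9. Arhgap5 had one at chr12:52504015-52505580 with folds of 6.93 and 9.502, 5.33 and 4.99, and 6.37 and 13.04, and it lay inside the Arhgap5 gene of RefSeq, which begins farther upstream than the listed start site. Ripply3, a co-repressor of T-box factors, had a region called in all libraries but E. coli replicate 2, 14857 bp before it. This region overlapped a start site that lies inside Hlcs, which encodes holocarboxylase synthetase. Its folds were 6.93 and 6.97 in the germ-free libraries, 5.33 in E. coli replicate 1 and 5.66 and 11.6 in the conventional libraries. The region before Cyth4 and Rac2, genes best known from blood cells, overlapped the start of the long noncoding RNA Gm36738 and was called in all libraries but E. coli replicate 1. That before Krt42, a keratin, lay inside the transcript Gm14206, 17601 bp from Krt42, and lacked a call in E. coli replicate 1 too.

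Some genes had many separate upstream regions. Of the 1665 genes, 651 had 2 or more and 116 had 5 or more. C130026I21Rik, of a repeated gene family on chr1, had the most, 19, and its promoter was called in none. Of the 19, germ-free libraries called 13 and 7, E. coli libraries 10 and 4 and conventional libraries 4 and 5. All had their midpoint inside a RefSeq gene, overlapping C130026I21Rik itself together with Gm38510, or Gm38510 alone. How reads with several placements were handled is not given, so the values of this repeated family are uncertain too. Armc12 had 15, of which 14 were called in germ-free replicate 2, and Malat1, a nuclear long noncoding RNA, had 14, of which 13 were called there and 5 in conventional replicate 2. Casz1, a zinc finger factor, had 12 (9 in germ-free replicate 2, 5 in conventional replicate 2). The promoters of Malat1 and Casz1 were called in all 6 libraries, and that of Armc12 in none. Trpm8, the cold-sensing channel, had 12, 9 of them in germ-free replicate 1.

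Upstream regions were found at genes of intestinal identity, of the epithelial barrier and of the immediate early response. Over all 21900 protein-coding genes known to RefSeq, 6.80% had one, and of the 8097 with a promoter interval 11.9%. Of 35 intestinal transcription factors, 13 had an upstream region (37.1%), 12 of them with a promoter interval, and of 37 junction and barrier genes 15 had one (40.5%). Of 35 genes of the absorptive enterocyte and its microvilli 11 had one (31.4%), and of 21 immediate early genes, which respond to growth signals and stress, 13 (61.9%). These counts came from the longest lists: of the 13 transcription factors 12 had a region in germ-free replicate 2, 8 in conventional replicate 2 and none in either E. coli library. Without the 2 longest lists, 1 transcription factor (Gata6), 4 junction genes (Epcam, Krt8, Krt18 and Pkp2), 3 enterocyte genes (Atp1b1, Enpep and Myo1a) and 1 immediate early gene (Fosl2) were left. The lists were chosen with results of these data known, and the counts are descriptions.

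Among the transcription factors, Gata6, which helps to set the identity of the ileal epithelium, had the most widely called regions. Its largest, 2419 bp long and 2192 bp before the start, was called in both germ-free libraries (folds of 5.77 and 13.3) and both conventional libraries (5.66 and 13.04) and in neither E. coli library. This region was classed upstream in 3 of those 4 libraries. The fold of 13.3 in germ-free replicate 2 equals that of the Gata6 promoter interval in the same list. Cdx2, the master factor of intestinal identity, had 9 upstream regions, of which germ-free replicate 2 called 7 and conventional replicate 2 called 4, and its promoter was called in all 6 lists. Those called in both lists lay 4584 and 6005 bp upstream (chr5:147311833-147312061 and chr5:147313254-147313794), with folds of 5.07 and 5.79 in replicate 2 of the germ-free and conventional groups for each. Klf5, a factor of crypt proliferation, had 3 regions between 1514 and 3041 bp, all called in the same 2 libraries alone. Klf4, a factor of epithelial differentiation, had 1 at 1129 bp, called in both conventional libraries (folds of 4.25 and 5.07) and in no other. Klf4 was not left without the 2 longest lists, so the call in conventional replicate 1 was not an upstream interval assigned to Klf4. Klf6, Gata5, Ets2 and Creb3l3 each had a region called in replicate 2 of the germ-free and conventional groups, and the region of Klf6 at 15591 bp had a fold of 12.04 in the germ-free one.

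Among the barrier and enterocyte genes, the keratin genes Krt8 and Krt18 encode the paired filament proteins of simple epithelia. They shared a region called in 3 libraries, both germ-free ones and conventional replicate 2, at chr15:102017155-102017920 (folds of 6.93, 7.60 and 6.52). This region lay 10296 bp before the nearest listed start site and overlapped the start of the long noncoding RNA Gm41404. Epcam, an adhesion molecule of the gut epithelium, had a region 7096 bp upstream (chr17:87627038-87628883) with folds of 7.60 in germ-free replicate 2 and 5.66 and 10.1 in the conventional libraries. Cldn3 and Cldn4, which encode tight junction proteins, shared a region 17590 bp upstream called in replicate 2 of the germ-free and conventional groups. Myo1a, the brush border myosin, had a region in 5 libraries, all but E. coli replicate 2, at chr10:127703772-127704236, with folds of 6.35 and 9.502, 5.92, and 4.95 and 8.69. Its listed distance was 1020 bp, just outside the promoter class, and in 2 of the 5 libraries it was classed otherwise than upstream. This region was also assigned to Tac2, and its midpoint lay inside the Myo1a gene of RefSeq. The folds of 9.502 and 8.69 equal those of the Myo1a promoter intervals in the same lists. Atp1b1, a subunit of the sodium pump, had 3 regions, the nearest called in germ-free replicate 2 and both conventional libraries.

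**Figure D5:**
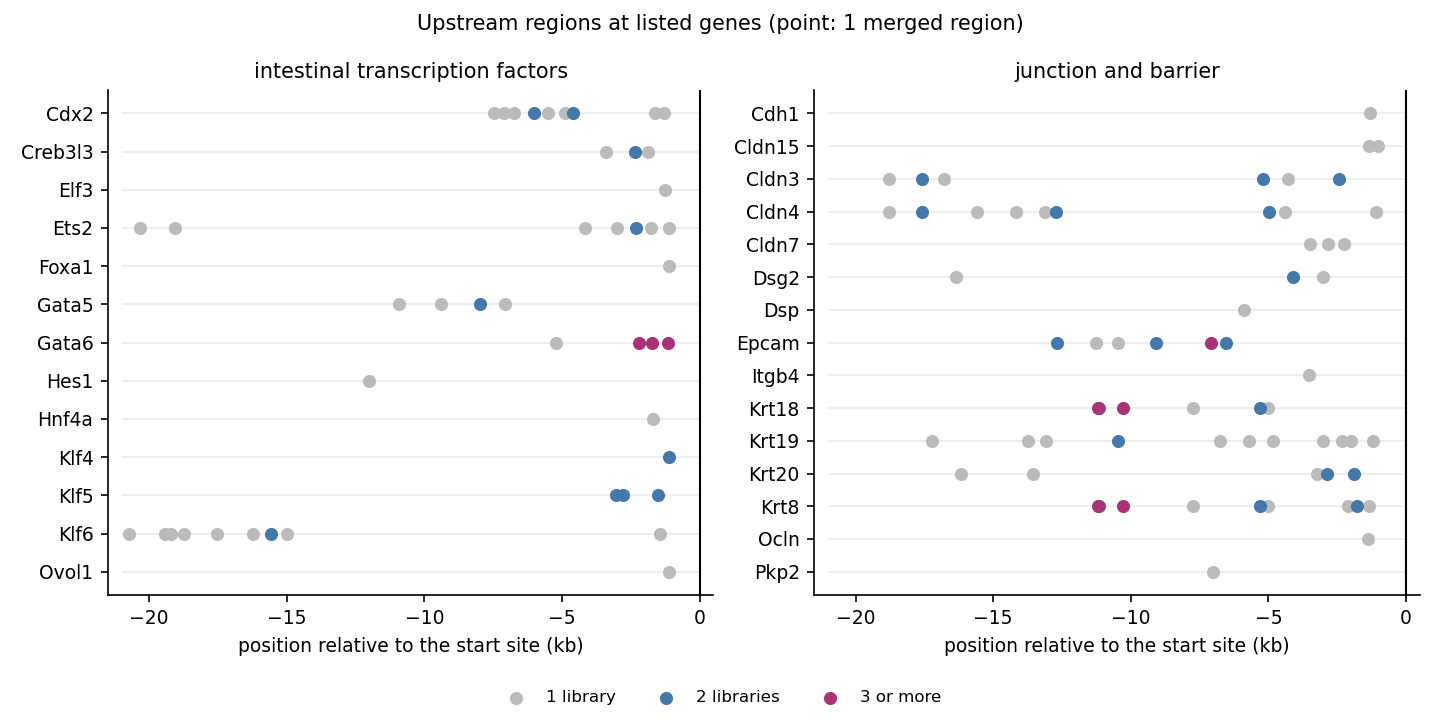
Position of upstream regions relative to the start site in kb (x axis) for the listed intestinal transcription factors (left) and junction and barrier genes (right), 1 point per merged region, coloured by the number of libraries that called it. Gata6, Epcam, Krt8 and Krt18 hold the regions called in 3 or more libraries; most points are grey, that is, called once.

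The other lists had smaller counts. Upstream regions were found at 7 of 29 genes of antigen presentation and interferon signalling (24.1%), 6 of 19 clock genes (31.6%) and 6 of 25 lipid and chylomicron genes (24%). They were also found at 5 of 26 stem cell and Wnt genes (19.2%) and 4 of 26 innate sensing genes (15.4%). Goblet genes had 3 of 21 (14.3%) and histone acetylation genes 3 of 33 (9.09%). The clock share was about that of the enterocyte list (31.4%), and all these shares were above the 6.80% of all protein-coding genes. For cell types of lower number or of other tissues they were found at 2 of 12 Paneth, 2 of 11 tuft, 1 of 15 enteroendocrine, 1 of 25 leukocyte and 1 of 25 stromal, endothelial, muscle and nerve genes. Promoter intervals in any list were found for 29 of the 35 enterocyte and 33 of the 37 junction genes, against 1 of the 25 leukocyte, none of the 25 stromal and none of the 11 tuft genes. Jak2, a kinase of interferon and cytokine receptors, had a region 1145 bp upstream that intervals of any class overlapped in 4 libraries. The folds were 10.8 in germ-free replicate 2, 4.99 in E. coli replicate 2 and 6.37 and 7.97 in the conventional libraries. This region was classed upstream in E. coli replicate 2 alone. The folds of 10.8 and 6.37 equal those of the Jak2 promoter intervals in the same lists. Among the immediate early genes, Fosl2 had a region at chr5:32133789-32135017 called in germ-free replicate 2 and both conventional libraries (folds of 6.97, 4.95 and 5.79), and Fos had 2 called in replicate 2 of the germ-free and conventional groups.

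By housing, upstream regions called in both libraries of one group and in neither of another were rarer than among all regions, or about as rare. Called in both libraries of the germ-free mice but not in E. coli mice were 85 of the 2421 (3.51%), and over all merged regions the share was 6.74%. In both conventional and neither E. coli library there were 74 (3.06%, against 5.82%). In both germ-free and neither conventional library there were 15 (0.620%, against 0.763%), and in both conventional and neither germ-free library 13 (0.537%, against 0.6%). In both E. coli libraries and neither germ-free library there was none (0.0125% over all regions), and in both E. coli and neither conventional library there were 2 (0.0826%, against 0.0792%). With 2 libraries a group no region was tested on its own. List length moved with these counts: with the 868 most significant intervals per list the counts in the order given were 4, 3, 3, 3, 2 and 8. For this and the other changed settings no share over all merged regions is given, so these counts cannot be set against a background. With 1 germ-free library the first count was 1575 without replicate 1 and 203 without replicate 2. At least 1 library of each group called 61 of the 2421 regions, while 1249 were called in germ-free libraries only, 618 in conventional libraries only and 28 in E. coli libraries only. Over all 23983 merged regions these counts were 1351, 9187, 6418 and 432 in that order, and they follow the lengths of the lists. At least 1 E. coli library called 110 of the 2421 regions, and 1955 of all merged regions. A named region without an E. coli call was thus the common case.

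The regions of these patterns with the highest folds within their lists lay at genes of several kinds. Both germ-free libraries, and no other, called a region at chr5:137278019-137278880, 9397 bp before Ache, which encodes acetylcholinesterase, or Ufsp1, with folds of 6.93 and 12.04. They also called, alone, a region 9259 bp before Acvr1b, an activin receptor (chr15:101163469-101164866, folds of 4.62 and 8.24), whose promoter was called in all 6 libraries. Regions at Cep170b, at Luc7l2 and at Rbm34 were called in all germ-free and conventional libraries but in neither E. coli one. That of Cep170b was classed upstream in 2 of its 4 libraries, and that of Rbm34 overlapped the noncoding RNA Gm29688. Both conventional libraries, and no other, called 2 regions 1867 and 2906 bp before the listed start site of Nr3c1, the glucocorticoid receptor gene. Their folds were 5.66 and 10.9 and 4.95 and 7.97, and their midpoints lay inside the Nr3c1 gene of RefSeq. The conventional libraries alone called a region 15020 bp before Notch4 (chr17:34548619-34549275, folds of 7.08 and 9.41). They alone also called one 4637 bp before the listed start site of Ggt1, which encodes an enzyme of glutathione breakdown (folds of 6.37 and 5.07). The midpoint of this last region lay inside the Ggt1 gene of RefSeq, 977 bp from a RefSeq start site. Germ-free replicate 2 and both conventional libraries called a region before the listed start site of Stk25, a kinase, with its midpoint inside the Stk25 gene of RefSeq. All germ-free and conventional libraries, and neither E. coli library, called regions at Cpeb4, Tmem211 and Birc2, the last an inhibitor of apoptosis. Those at Cpeb4 and Birc2 overlapped the gene itself, and each was classed upstream in 1 of its 4 libraries. The 2 regions called in both E. coli and neither conventional library lay at C130026I21Rik and Gm17019, and both germ-free libraries called them too. That at C130026I21Rik overlapped the RefSeq gene itself. A region of Ccl28, a mucosal chemokine, was called in both germ-free libraries and E. coli replicate 1 and in neither conventional library (folds of 5.77 and 5.70 and of 7.69), while 2 other Ccl28 regions were called in 5 libraries, all but conventional replicate 1.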

How the data were processed

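H3K9ac was profiled in 6 libraries of intestinal epithelial cells, 2 per housing group, grouped by the labels. Reads were single-end, 50 bp and 20 M per library, per the labels. Bowtie 1.2.0, MACS2 2.1.1.20160309 and mm10 were used, per the submitters' processing notes. Of the input control and the options of the peak caller, nothing is given in the sources used here. Every deposited list holds 1 library, called on its own. The deposited columns give the pileup (signal) at the summit, the fold enrichment as a ratio, and -log10 p and q values, per the file headers, with the region class and gene assigned by the authors. In the deposited list of germ-free replicate 2, 14 header names stand over 13 cells, and columns were identified by their values. Library totals are not given in the lists, and a gene without an interval may still carry the mark.

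Repeated lines of 1 interval were counted once, mitochondrial intervals were left out, and intervals were joined over libraries at 1 bp. A region was called in a library where any interval of that library overlapped it. Distance was taken to the nearest start site among the transcripts listed for the interval. Genes, start sites and sequences came from RefSeq tables of GRCm38.p6 (1653 of 1665 symbols matched; 541 of 741 compared start sites were equal to one in the table), whose start sites leave out 1 chromosome. No genome was used here, so motifs were not searched and sequences were taken only from these tables. Numbers (log2) and shares were compared by exact two-sided permutation of libraries (Benjamini-Hochberg over 3 pairs), and upstream with other classes by exact sign flips over 6 libraries (Benjamini-Hochberg over 12 tests), at 0.05. The code was tested on simulated data. The code used Python 3.11.15 with statsmodels 0.14.6, pandas 2.3.3, SciPy 1.17.1, NumPy 2.4.6 and matplotlib 3.10.9.

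The regions and the 16 gene lists were chosen with earlier results of these data known. Named were the strongest 12 of the most recurrent regions, 5 per ordered pair of groups, list genes with a region in 2 or more libraries, 8 widely called regions without a promoter interval, the 5 genes with most regions, and the nearest and farthest; the microRNA genes and those at RefSeq start sites or small RNA genes were chosen after their values were seen. Alternatives were stricter thresholds, equal list length, all lines, other overlap, other partner rules, a replicate block and leaving out libraries.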

Additional observations from a re-analysis of the deposited data

How the results depend on the processing

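Not all between-group differences kept their direction, and no setting brought one past 0.05, which 2 libraries a group cannot reach. With the 868 most significant intervals per list, the number difference (log2) was 0.36 for E. coli against germ-free and -0.40 for conventional against E. coli, and the share differences were 0.979 and -1.15 points. The overlap difference became -5.76 points against introns and -11.4 against intergenic intervals, and the log2 fold difference against promoters 0.034. With a -log10 q of 5 or more the share of conventional against E. coli was -1.19 points, and the overlap -2.15 points against introns and -6.99 against intergenic intervals. With a fold of 5 or more the log2 fold difference against introns was 0.023. With the nearest RefSeq start site as partner, conventional against germ-free was -4.89 points, and without the regions called in all 6 the share of conventional against E. coli was -0.269 points. The cause of these changes was not tested.

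Counts of both and neither (germ-free not E. coli, germ-free not conventional, E. coli not germ-free, E. coli not conventional, conventional not germ-free, conventional not E. coli) at equal length were 4, 3, 2, 8, 3 and 3. At a -log10 q of 5 or more, the counts that moved were 28, 9, 1, 2 and 24 (all but E. coli not conventional). At a fold of 5 or more they were 56, 7 and 39 (the first and the last 2). None of these counts, nor those with a library left out, has a share over all merged regions beside it.

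Leaving out 1 library in turn, those counts ranged from 82 to 1575, 14 to 1161, 0 to 32, 2 to 41, 13 to 613 and 72 to 1041, each highest with 1 library left in the first group named. Number differences ranged from -4.71 to -2.10 (E. coli against germ-free), -2.17 to 0.76 (conventional against germ-free) and 1.24 to 4.16 (conventional against E. coli). Share differences ranged from -4.77 to -1.29, -3.52 to -0.046 and -0.042 to 2.53 points, and partner differences from -50.1 to -12.3, -15.6 to 22.1 and 19.8 to 49.1 points. All 12 class differences kept their sign or came to 0 in these 6 fits. With the replicate block the number difference of E. coli and germ-free was -3.40 (exact permutation p = 0.5, the smallest it can give), and no call changed. Over the 2421 regions the deviations of same-numbered libraries had correlations of 0.114, -0.342 and 0.0641 in the 3 pairs of groups. Each region is included because some list called it, so these values cannot tell whether same-numbered libraries share more than a number, which was not tested. Without the 2 longest lists, 40.1% of the 394 regions had a gene with a promoter interval in any of the 4 lists and 43.4% had a midpoint in a RefSeq gene. Peaks below a fold of 3.62 to 4.28 are in no list, so weaker acetylation was not detectable.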

Other observations

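In all, 49 microRNA genes had an upstream region by the authors' assignment, Mir200a, Mir200b and Mir429 included. Of their 53 regions, 16 were called in 2 or more libraries. For Mir297-1, Mir3110 and Mir467c, RefSeq places the gene of that name on another chromosome, so their regions are not upstream of those RefSeq genes. The pair Mir192 and Mir194-2, microRNAs known as abundant in intestinal epithelium, had a region 1496 bp upstream (chr19:6262578-6263147) called in replicate 2 of all 3 groups, with folds of 7.60 in germ-free, 4.99 in E. coli and 7.97 in conventional mice. The cluster of Mir23a, Mir27a and Mir24-2 had one 6654 bp upstream (chr8:84200406-84202161), called in both germ-free libraries and conventional replicate 2 with folds of 5.77, 7.60 and 10.1. Mirlet7g had one at chr9:106159957-106160598, called in germ-free replicate 2 and both conventional libraries with folds of 5.07, 6.37 and 6.52. Neither of these last 2 regions was called in an E. coli library, which held for most regions. At least 1 E. coli library called 110 of the 2421 upstream regions and 1955 of all 23983.

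Among genes with many upstream regions outside the named ones, Gcnt3, a mucin-type glycosyltransferase, had 10 regions, all called in germ-free replicate 2 and in no other library. Krt19, a keratin of simple epithelia, had 11, all called in germ-free replicate 2 and 1 of them also in conventional replicate 2. Both genes were chosen after their values were seen.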
